A study of Homo sapiens with 4 samples.

Results

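Gene deserts were taken as the space on chromosomes 1 to 22 that lies 500 kb or more from every protein-coding gene of the RefSeq table, and a peak of phosphorylated H2A.X (γH2AX) belonged to a desert when its midpoint fell there. Of the peaks on those chromosomes, 1642 of 57503 with OTS186935, 1437 of 45721 with doxorubicin, 873 of 28080 with the combination and 2006 of 70318 with DMSO were desert peaks. All 4 libraries came from SK-UT-1, an established line from a uterine leiomyosarcoma, a cancer of smooth muscle. The cells had been given 1 µM OTS186935, an inhibitor of SUV39H2, which methylates histones; 0.5 µM doxorubicin, which poisons topoisomerase II; both drugs at those doses; or the vehicle, 0.1% DMSO. Each treatment was represented by 1 library, so treatments are set side by side without a test, and the intervals given are exact 95% intervals that cover counting error only. The series title names a PARP inhibitor, whereas the labels of these libraries give doxorubicin as the second drug.

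H2A.X is a variant of histone H2A that is phosphorylated by the kinases ATM, ATR and DNA-PK around DNA double-strand breaks. Gene deserts are typically AT-rich, replicate late in S phase and are often packed into heterochromatin, in which SUV39 enzymes write methylation on lysine 9 of histone H3. Many deserts flank genes of development or of the nervous system and hold distant enhancers or long non-coding RNA (lncRNA) genes. A peak is a call of enrichment over an estimated background, so how many peaks a region holds does not say how much of the mark it carries.

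Some desert peaks lay on the start sites of lncRNA genes, and the sequences of these windows differed in base composition from those of windows without a peak. RefSeq promoter windows run from 250 bases before a gene's start to 50 after it, and 641 such windows, of 569 lncRNA genes, lay in deserts. The windows overlapped by a peak numbered 22 with OTS186935, 20 with doxorubicin, 14 with the combination and 27 with DMSO, and 10 windows carried a peak in all 4 libraries. The median GC content of windows with a peak was 61.5% with OTS186935, 61.8% with doxorubicin, 62.2% with the combination and 61.7% with DMSO, whereas windows without a peak had medians of 38.7%, 39%, 39% and 38.7% in the same order of libraries. Each window holds 300 bases. The 4 windows shown first had the highest values for the weakest of their 4 peaks, and the last, whose GC content equals the median of windows with no DMSO peak, stands for windows without a peak in any library. Every CG dinucleotide is in capitals, and each sequence reads 5′ to 3′ on the strand of its gene. Sequences are those of RefSeq on GRCh38.p14.
LOC105375975: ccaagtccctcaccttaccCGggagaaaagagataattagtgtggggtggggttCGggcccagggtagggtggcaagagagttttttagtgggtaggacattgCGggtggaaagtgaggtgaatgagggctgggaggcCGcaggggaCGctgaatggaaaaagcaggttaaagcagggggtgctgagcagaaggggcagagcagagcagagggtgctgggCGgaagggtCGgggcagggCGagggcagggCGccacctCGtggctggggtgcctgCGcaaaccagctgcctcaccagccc
LOC107985534: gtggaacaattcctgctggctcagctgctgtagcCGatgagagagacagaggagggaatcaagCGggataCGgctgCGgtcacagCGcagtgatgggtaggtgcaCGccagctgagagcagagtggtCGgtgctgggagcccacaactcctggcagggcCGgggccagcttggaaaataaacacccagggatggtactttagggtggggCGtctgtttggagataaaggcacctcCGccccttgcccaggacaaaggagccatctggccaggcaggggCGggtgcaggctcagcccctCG
LINC01902: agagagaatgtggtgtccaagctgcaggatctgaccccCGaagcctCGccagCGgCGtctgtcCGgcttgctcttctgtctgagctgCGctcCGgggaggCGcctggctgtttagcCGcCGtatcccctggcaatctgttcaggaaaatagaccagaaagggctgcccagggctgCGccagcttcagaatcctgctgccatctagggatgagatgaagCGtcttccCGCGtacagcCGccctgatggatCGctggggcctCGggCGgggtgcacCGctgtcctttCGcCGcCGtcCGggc
LOC105378477: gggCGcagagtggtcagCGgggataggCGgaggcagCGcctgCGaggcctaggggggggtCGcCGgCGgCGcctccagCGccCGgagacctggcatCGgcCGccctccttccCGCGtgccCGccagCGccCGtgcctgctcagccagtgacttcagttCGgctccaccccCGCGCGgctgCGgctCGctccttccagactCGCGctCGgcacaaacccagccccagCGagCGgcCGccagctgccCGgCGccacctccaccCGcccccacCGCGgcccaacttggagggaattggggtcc
LOC107985953 (no peak): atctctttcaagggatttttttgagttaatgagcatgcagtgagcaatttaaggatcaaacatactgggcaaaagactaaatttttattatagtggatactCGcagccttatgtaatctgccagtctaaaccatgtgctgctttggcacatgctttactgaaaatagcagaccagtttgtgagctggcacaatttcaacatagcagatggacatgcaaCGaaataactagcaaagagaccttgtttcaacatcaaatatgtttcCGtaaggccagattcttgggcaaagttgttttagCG

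The window of LOC105375975 (chr9:11618700-11618999, minus strand) holds 11 CG dinucleotides and lies 1006 kb from PTPRD, which encodes a receptor tyrosine phosphatase of synapses. Its peak had a −log10 q, the authors' strength of a call after correction for multiple testing, of 7.37 with OTS186935, 5.75 with doxorubicin, 6.48 with the combination and 6.71 with DMSO. The peak over LOC107985534 (chr22:27137950-27138249, plus strand, 12 CG) had 6.86, 5.66 and 4.12 in those 3 treated libraries and 7.1 with DMSO, and CRYBA4, a lens crystallin gene, was 507 kb away. LINC01902 (chr18:39841459-39841758, plus strand, 23 CG) was 2067 kb from the nearest coding gene, and its peak had a −log10 q of 9.43 with OTS186935, 3.95 with doxorubicin, 4.34 with the combination and 5.5 with DMSO. The window of LOC105378477 (chr10:108466348-108466647, minus strand) held 35 CG, the most of the 10 shared windows. SORCS1, a sorting receptor gene, lay 1285 kb from it, and its peak had a −log10 q of 6.99, 3.59 and 4.2 with OTS186935, doxorubicin and the combination, against 4.84 with DMSO. The window of LOC107985953 (chr2:155525225-155525524, plus strand) had 4 CG and lay 667 kb from KCNJ3, a potassium channel gene. These peaks were small in reads: summit pileups, solved from the deposited values, were 11, 9, 11 and 11 fragments over LOC105375975 with OTS186935, doxorubicin, the combination and DMSO.

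The 10 shared windows had 11 to 35 CG and a GC content of 49.7% to 75.7%. Of 60 desert windows with 11 or more CG, 23 had a DMSO peak and 34 had no peak in any library. The share of windows with a peak was 3.43% (interval 2.16 to 5.15) with OTS186935, 3.12% (1.92 to 4.78) with doxorubicin, 2.18% (1.2 to 3.64) with the combination and 4.21% (2.79 to 6.07) with DMSO. Among 11928 windows of non-coding genes outside deserts the same shares were 7.25%, 5.49%, 3.81% and 10.1%, and those windows were richer in GC, at a median of 50.7% against 39.3% in deserts. Outside deserts, non-coding windows with a peak also had the higher GC content, with medians of 62% to 63.5% against 49% to 50% without one. How far GC content affected the recovery of fragments was not tested. Other genes with a start window called in all 4 libraries were LETR1, MIR4458HG and LINC02226, whose windows overlap, LOC105371204, LOC105377612 and LOC105377950.

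Desert space was poor in peaks in every library. It made up 392 Mb in 304 stretches, 13.6% of the 2874 Mb analysed, and held 2.86% (interval 2.72 to 2.99) of peaks with OTS186935, 3.14% (2.98 to 3.31) with doxorubicin, 3.11% (2.91 to 3.32) with the combination and 2.85% (2.73 to 2.98) with DMSO. Density was 4.19 peaks per Mb in deserts against 22.5 elsewhere with OTS186935, and 3.67 against 17.8 with doxorubicin. With the combination it was 2.23 in deserts against 11 elsewhere, and with DMSO 5.12 against 27.5. The ratio of desert to elsewhere was 0.186 (0.177 to 0.195) with OTS186935, 0.205 (0.195 to 0.217) with doxorubicin, 0.203 (0.19 to 0.217) with the combination and 0.186 (0.178 to 0.194) with DMSO. The difference, desert minus elsewhere, averaged -2.36 ± 0.08 on the log2 scale (SD, n = 4 libraries). It was negative in 4 of 4 libraries, and the exact paired permutation test, two-sided, gave p = 0.125, the smallest p that 4 libraries allow. The size of the ratio depends on the length counted: with stretches of 1 Mb or more that hold no row left out, it was 0.327, 0.361 and 0.357 in the treated libraries and 0.327 with DMSO. For peaks that reached a −log10 q of 5, the ratio for the combination was 0.45.

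Beyond 10 kb from coding genes, density fell with distance well before the desert limit was reached. Inside coding genes it was 26.9, 21.2, 12.8 and 33.5 peaks per Mb with OTS186935, doxorubicin, the combination and DMSO, and up to 10 kb from them it was slightly higher, at 29.1, 21.4, 14.2 and 34.5. At 50 to 100 kb from the nearest gene it was 16.9, 14.3 and 8.97 in the treated libraries, listed in that order, and 20.3 with DMSO, and at 250 to 500 kb it was 8.7, 7.44 and 4.41, and 10.5 with DMSO. Between 500 kb and 1 Mb it was 6.71, 5.82 and 3.46, and 8.29 with DMSO, and at 1 Mb or more it was 2.08, 1.87 and 1.2, and 2.46 with DMSO. That last step went with the stretches that hold the widest gene-free gap of each chromosome. Without those stretches, density at 1 Mb or more was 6.99 with OTS186935, 6.27 with doxorubicin, 3.95 with the combination and 8.36 with DMSO, and at 500 kb to 1 Mb it was 7.07, 6.14 and 3.64, and 8.82 with DMSO. In each library the intervals of these last 2 densities overlapped. Counts were lower just past the 500 kb limit than just short of it in every library. The length of each band was not measured, so a step in density there was not tested. In the first 50 kb past it, 193, 179, 93 and 231 peaks lay with OTS186935, doxorubicin, the combination and DMSO, beside 250, 205, 114 and 311 in the last 50 kb short of it. The median desert peak lay 756 to 764 kb from a coding gene, and the farthest lay 4956 kb away, with OTS186935 and with DMSO.

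**Figure D1:**
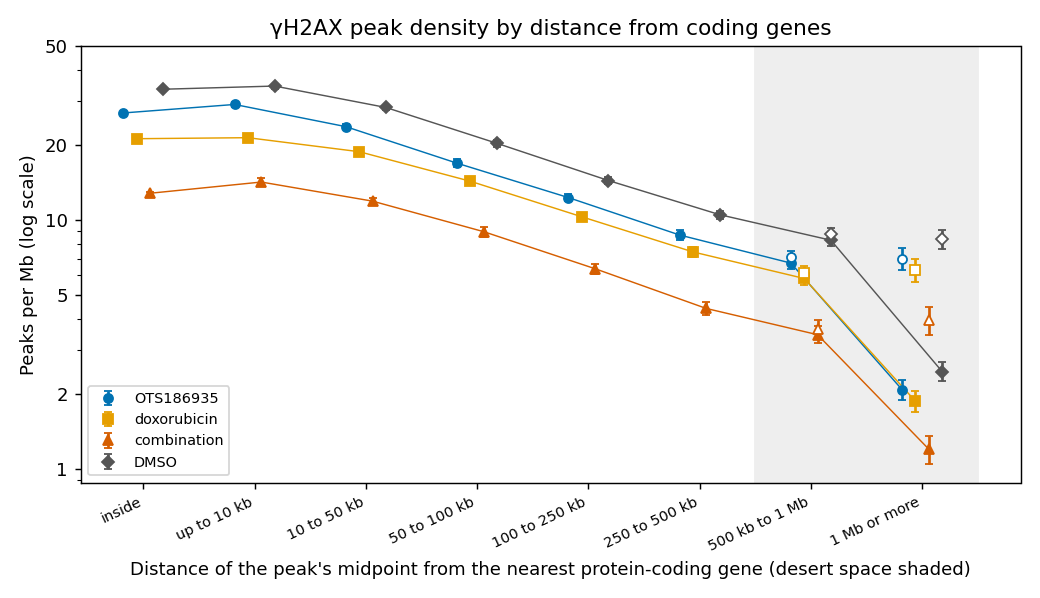
Peaks per Mb on a log scale against the distance of a peak's midpoint from the nearest protein-coding gene, by library, with exact 95% Poisson intervals. Filled symbols use all space, and open symbols leave out the stretch with each chromosome's widest gene-free gap; density is highest up to 10 kb from a gene and falls beyond that in all 4 libraries, and the open symbols at 1 Mb or more stay between 3.95 and 8.36 peaks per Mb.

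Deserts were of 3 kinds with very different density. Interior stretches, those neither near a chromosome end nor at its widest gene-free gap, numbered 268 over 211 Mb and held most desert peaks, 81.7% with OTS186935, 81.7% with doxorubicin, 81.9% with the combination and 83.6% with DMSO. Their density was 6.37 (interval 6.04 to 6.72) peaks per Mb with OTS186935, 5.57 (5.26 to 5.9) with doxorubicin, 3.39 (3.15 to 3.65) with the combination and 7.96 (7.59 to 8.35) with DMSO, which is 0.283, 0.312, 0.31 and 0.289 of the density outside deserts. Near-end stretches are the 14 whose middle lay in the outermost 5 Mb of a chromosome and that do not hold its widest gene-free gap, and they covered 6.07 Mb. They had 30.6 (26.4 to 35.4) peaks per Mb with OTS186935, 27.2 (23.2 to 31.6) with doxorubicin, 15 (12.1 to 18.4) with the combination and 34.2 (29.8 to 39.2) with DMSO, all above the density outside deserts. That order depends on the start of chromosome 21, a widest-gap stretch of 4.51 Mb without a peak in any library whose middle also lies in the outermost 5 Mb. With it counted as near-end, density was 17.6, 15.6 and 8.6 in the treated libraries and 19.7 with DMSO, all below the density outside deserts. Among the 14, density also depended on 3 stretches picked after their values were seen, and leaving out dense stretches must lower it. They ran from GALR1 to SALL3, from TMEM121 to the end of chromosome 14 and from B3GAT1 to the end of chromosome 11. Without them, the other 11 had 20.9, 17.7 and 10.3 peaks per Mb in the treated libraries and 25.3 with DMSO. These values lay just under those outside deserts. Taken singly, 5, 7 and 5 of the 11 in the treated libraries and 4 with DMSO were above the density outside deserts. Of all 14, 8, 10 and 8 were, and 7 with DMSO.

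The 22 stretches that hold the widest gap between RefSeq genes of any kind on their chromosome covered 175 Mb, 44.7% of desert length. They had 0.65 (interval 0.536 to 0.781) peaks per Mb with OTS186935, 0.559 (0.454 to 0.681) with doxorubicin, 0.382 (0.296 to 0.485) with the combination and 0.69 (0.573 to 0.825) with DMSO. Of them, 8 stretches of 71.6 Mb in all had no peak in any library, among them the starts of chromosomes 14, 15 and 21. No genome sequence was used, so positions without assembled or uniquely mappable sequence could not be taken out of the length, and an empty stretch cannot be told apart from one that reads could not reach. The 4 fullest, on chromosomes 8, 16, 17 and 19, together 22.6 Mb, held 93 of 114 such peaks with OTS186935, 70 of 98 with doxorubicin, 56 of 67 with the combination and 87 of 121 with DMSO. The longest desert stretch of all, 21.4 Mb on chromosome 1 between LINC02798 and H3-7, had 2, 4 and 1 peaks in the treated libraries and 3 with DMSO. Next in length, at 19.8, 18.7, 18.1 and 17 Mb, came the starts of chromosomes 15, 13 and 14 and the stretch from LOC112268044 to SPATA31A5 on chromosome 9. Of these 4, the start of chromosome 13 alone had peaks, 1 with OTS186935, 1 with doxorubicin, 0 with the combination and 2 with DMSO.

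**Figure D2:**
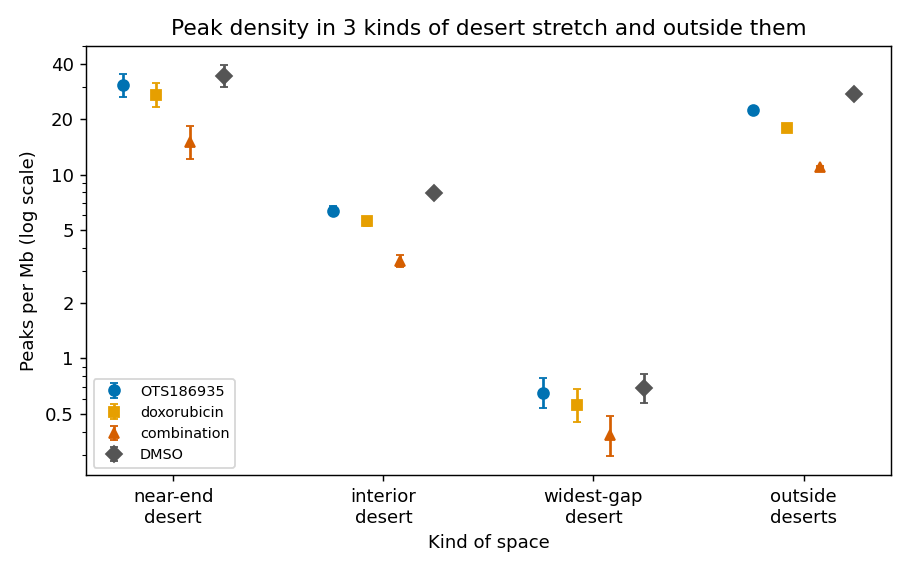
Peaks per Mb on a log scale in near-end, interior and widest-gap desert stretches and outside deserts, by library, with exact 95% Poisson intervals. Near-end stretches, with the empty start of chromosome 21 counted among the widest gaps, lie above the space outside deserts, interior stretches at 3.39 to 7.96 peaks per Mb lie below it, and widest-gap stretches lie under 1 peak per Mb in all 4 libraries.

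Desert density was below density elsewhere on 22 of 22 chromosomes in each library. With the widest-gap stretch of each chromosome left out, 20 chromosomes kept at least 1 Mb of desert, and their desert density had a median of 7.43 peaks per Mb with OTS186935, 6.14 with doxorubicin, 3.73 with the combination and 8.68 with DMSO. Chromosome 13 was lowest in every library, at 2.73, 2.31 and 0.546 peaks per Mb with OTS186935, doxorubicin and the combination and 3.94 with DMSO. Its density outside deserts was low as well, at 7.75, 6.35 and 2.82 in the treated libraries and 9.85 with DMSO. The highest was chromosome 14 with OTS186935 (9.88), chromosome 18 with doxorubicin (9.82) and DMSO (13.7), and chromosome 10 with the combination (5.62). Much of this lay in 1 short near-end stretch on chromosomes 14 and 18. Beyond TMEM121, 0.854 of 11 Mb held 36 of 109 chromosome 14 peaks with OTS186935. From GALR1 to SALL3, 0.702 of 9.16 Mb held 37 of 90 chromosome 18 peaks with doxorubicin and 47 of 126 with DMSO. Chromosome 4, which has 31.3 Mb of desert, gave the largest share of its own peaks to deserts on any chromosome, at 9.23% with OTS186935, 8.52% with doxorubicin, 9.21% with the combination and 8.61% with DMSO.

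The coding genes at the edges of deserts included many of cell adhesion and the synapse. Of 558 flanking genes, 36 (6.45%) were in the list of cadherins, protocadherins, contactins and other adhesion genes, whereas 138 of 18969 coding genes on these chromosomes (0.728%) were. Developmental transcription factors made up 18 of 558 (3.23%) against 165 of 18969 (0.87%), among them SOX2, SOX9, ZIC1 and TBX3. Zinc finger genes (10 of 558 against 526 of 18969) and olfactory receptors (4 of 558 against 388 of 18969) were less frequent at desert edges than over all coding genes. These counts describe the space and use no peak.

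Among the 10 stretches with most regions, after peaks of the 4 lists were joined where they overlapped, the combination had fewer peaks than DMSO in 10, doxorubicin in 9 and OTS186935 in 8. The treated lists were shorter than the DMSO list outside deserts too. There they held 39.8% of the DMSO count for the combination, 64.8% for doxorubicin and 81.8% for OTS186935. The fullest was the stretch of 0.702 Mb from GALR1, a galanin receptor gene, to SALL3, a zinc finger transcription factor gene, on chromosome 18 (chr18:77777900-78479818). It had 38 peaks with OTS186935, 37 with doxorubicin, 17 with the combination and 47 with DMSO, or 54.1, 52.7, 24.2 and 67 per Mb. Of its 75 regions, 5 were called in all 4 libraries. The stretch from NCAM2, a neural adhesion gene, to MRPL39 on chromosome 21 followed with 63 regions over 3.04 Mb, and had 28, 24 and 13 peaks in the treated libraries against 32 with DMSO. From PCDH7, a protocadherin gene, to ARAP2 on chromosome 4 there were 24 peaks with OTS186935, 25 with doxorubicin, 19 with the combination and 38 with DMSO over 3.86 Mb, and 8 of 61 regions were in all 4. The other long interior stretches of this set ran from AGA to TENM3, from CTNNA2 to SUCLG1, from GBE1 to CADM2 and from CDH8 to CDH11, with 46 to 60 regions each. Over these 4 stretches DMSO had 25 to 32 peaks and the combination 9 to 15.

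The end of chromosome 14 is a desert by the rule because immunoglobulin segments are not typed as protein-coding genes in RefSeq. Its 0.854 Mb beyond TMEM121 hold 120 V, D or J segments and segment pseudogenes of the immunoglobulin heavy chain locus, IGH, which is rearranged and expressed in B cells. The stretch had 36 peaks with OTS186935, 32 with doxorubicin, 18 with the combination and 31 with DMSO, and 15 of its 53 regions were called in all 4 libraries. The pericentromeric stretch from POTEA to LOC105375816 on chromosome 8 had 19, 15 and 9 peaks in the treated libraries and 26 with DMSO, but 0 of its 48 regions were called in all 4. In the widest-gap stretch of chromosome 16, from LOC124903767 to SHCBP1, 12 of 46 regions were called in all 4.

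Among stretches of 1 Mb or more, the densest with DMSO ran between 2 cadherin genes, CDH10 and CDH9, on chromosome 5, with 13.8 peaks per Mb with OTS186935, 9.71 with doxorubicin, 6.47 with the combination and 19.4 with DMSO. VRK1 to BCL11B on chromosome 14, beside a transcription factor gene of T cells and neurons, had 15.5, 14 and 8.54 in the treated libraries and 15.5 with DMSO. TMPRSS15 to NCAM2 on chromosome 21 had 11.9, 9.26 and 8.59, against 14.5 with DMSO. Choice by DMSO density favours high DMSO values in these stretches. Over the 77 interior stretches of at least 1 Mb, the count was below that of DMSO in 55 with OTS186935, in 65 with doxorubicin and in 72 with the combination, and above it in 18, 7 and 1. In the 50 of these with 10 or more DMSO peaks, the treated count was 38.5% to 136% of the DMSO count with OTS186935 (median 80%), 27.3% to 138% with doxorubicin (median 68.6%) and 10% to 72.7% with the combination (median 45%). The treated count over all space outside deserts was 81.8%, 64.8% and 39.8% of the DMSO count, in the same order. The 50 stretches were kept for a high DMSO count, which by itself lowers percentages of that count. Their medians are therefore not on an equal footing with the values outside deserts.

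**Figure D3:**
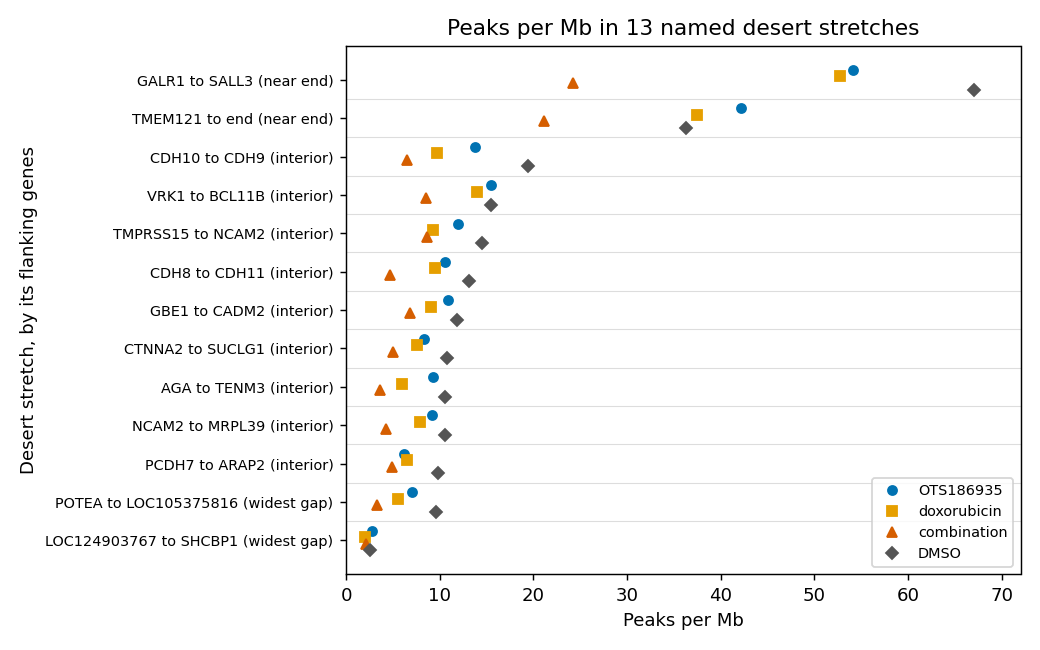
Peaks per Mb in the 13 desert stretches with most regions or with most DMSO peaks per Mb, each named by its flanking genes, with 1 point per library. The 2 near-end stretches lie above the others in every library, and the combination is lowest in all but the bottom stretch.

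The strongest desert peaks lay mostly at the ends of chromosomes 11 and 14. Of the 5 desert peaks with the highest −log10 q in each library, near-end stretches held 5 with OTS186935, 5 with doxorubicin, 3 with the combination and 5 with DMSO. The region chr14:106830656-106831720, inside the IGH locus and 1301 kb from TMEM121, had a −log10 q of 34.2 with OTS186935, 27.3 with doxorubicin, 13.1 with the combination and 41.6 with DMSO. The fold over background of its peak was 11.2, 12.5 and 9.74 in the treated libraries and 12.4 with DMSO. The fold thus differed less between libraries than the −log10 q did. Near the end of chromosome 11, chr11:135055410-135057059, at 644 kb from B3GAT1, the gene of a glucuronyltransferase that makes the HNK-1 epitope, had a −log10 q of 45.5, 23.2 and 12.5 in the treated libraries and 39.3 with DMSO. The last region listed on chromosome 14, chr14:106882958-106883716, had a −log10 q of 39 with OTS186935, 27.1 with doxorubicin, 9.91 with the combination and 49.1 with DMSO. Of the 8 regions called in all 4 libraries whose weakest call was strongest, 6 were near-end and 2 interior. The interior ones were chr4:178090777-178091441, at 649 kb from AGA, with a −log10 q of 8.15, 7.09 and 5.99 in the treated libraries and 12.1 with DMSO, and chr3:162702818-162703503, at 1199 kb from OTOL1, with 9.3, 5.84 and 6.09 and with 6.54 with DMSO.

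Some strong desert peaks of the treated libraries had no overlapping DMSO peak, and some DMSO peaks had none in any treated library. The strongest desert peak of the combination, chr2:125720934-125721491, lay over the lncRNA genes LOC105373598 and LINC01889 at 800 kb from CNTNAP5, an adhesion gene of neurons, and had no DMSO peak. Its −log10 q was 14.6, its fold 11.3 and its summit 18 fragments. With OTS186935 the strongest of this kind was chr11:135046022-135046361, at 634 kb from B3GAT1, with a −log10 q of 16.3 and 40 fragments, and another at the same chromosome end, chr11:134979059-134979704, had 13 and 19 fragments. The strongest interior one was chr4:19238561-19239178, at 1013 kb from SLIT2, an axon guidance gene, with a −log10 q of 12 and 14 fragments. With doxorubicin it was chr7:85821911-85822330, at 572 kb from SEMA3D, a semaphorin gene, with 7.96 and 11 fragments. The strongest DMSO peak with no overlap in any treated library was chr21:19853105-19853584, between TMPRSS15 and NCAM2, with a −log10 q of 10.7 and 17 fragments. Each of these rests on 40 fragments or fewer at its summit, and the lists do not give the signal where no peak was called.

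Desert peaks were about as wide as others and rested on somewhat fewer fragments. Median width was 443 bp in deserts against 448 bp elsewhere with OTS186935, 412 against 404 bp with doxorubicin, 413 against 397 bp with the combination and 455 against 465 bp with DMSO. The shortest listed peak differs by library (323, 295, 296 and 331 bp in the same order), so widths are compared within libraries. The median summit had 6 fragments in deserts against 7 elsewhere with OTS186935, 5 against 7 with doxorubicin, 7 against 7 with the combination and 6 against 8 with DMSO. Merged peaks with more than 1 summit were fewer in deserts with OTS186935 (1.95% against 3.43% elsewhere), doxorubicin (0.765% against 2.01%) and DMSO (1.79% against 4.92%), while with the combination they were 1.83% in deserts (interval 1.05 to 2.96) against 1.09% elsewhere. In interior deserts alone the combination's share was 0.979% (0.394 to 2.01), so its higher value was not seen there. The other interior shares were 1.42% with OTS186935, 0.341% with doxorubicin and 1.01% with DMSO.

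In deserts the combination's peaks were stronger calls than its peaks elsewhere. A −log10 q of 5 or more was reached by 157 of 873 desert peaks with the combination, 18% (interval 15.5 to 20.7), against 8.12% elsewhere and 8.42% of all its peaks. With OTS186935 the share was 336 of 1642, or 20.5% (18.5 to 22.5), against 17.7% elsewhere and 17.8% of all peaks. With doxorubicin it was 181 of 1437, or 12.6% (10.9 to 14.4), against 9.97% elsewhere and 10% of all peaks. With DMSO it was 520 of 2006, or 25.9% (24 to 27.9), against 25.6% both elsewhere and over all peaks, so deserts did not stand apart in that library. In interior deserts alone the shares were 18.6%, 11.4% and 17.9% in the treated libraries and 23.4% with DMSO. The background solved from the values was lower in deserts in every library. Its median was 0.397, 0.389, 0.445 and 0.454 fragments in deserts with OTS186935, doxorubicin, the combination and DMSO, against 0.68, 0.666, 0.785 and 0.729 elsewhere. The commonest background in each list was 0.397, 0.389, 0.428 and 0.454, in the same order, and the lower quartile in deserts equalled it. A value repeated over many peaks need not measure each peak's own surroundings. A lower background gives a higher fold and −log10 q for the same number of fragments, and its part in these shares was not tested.

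Set against DMSO, the treated counts over all kinds of desert together were as large a share as elsewhere, or larger. Desert counts were 81.9% (interval 76.6 to 87.4) of the DMSO count with OTS186935, 71.6% (66.9 to 76.7) with doxorubicin and 43.5% (40.1 to 47.1) for the combination. Elsewhere they were 81.8%, 64.8% and 39.8%. The intervals for desert and elsewhere do not overlap for doxorubicin (elsewhere 64.1 to 65.6), whereas those for the combination do (40.1 to 47.1 against 39.3 to 40.4). In interior stretches alone the counts were 80% (74.4 to 86), 70% (64.9 to 75.5) and 42.6% (39 to 46.6) of DMSO, in the same order. There the interval overlapped that elsewhere for each treated library. With doxorubicin, near-end stretches had 79.3% and widest-gap stretches 81%. Among peaks that reached a −log10 q of 5 the gap between all deserts and elsewhere was wider. It was 64.6% in deserts against 56.4% elsewhere with OTS186935, 34.8% against 25.2% with doxorubicin and 30.2% (25.1 to 36.2) against 12.6% (12.1 to 13.2) with the combination. The percentage varied outside deserts as well. With doxorubicin it was 63.2% inside coding genes, 66.6% at 10 to 50 kb, 70.6% at 50 to 100 kb, 71.7% at 100 to 250 kb and 71% at 250 to 500 kb, and in deserts 70.1% at 500 kb to 1 Mb and 76% (66.5 to 86.7) at 1 Mb or more. With the combination it was 38%, 42%, 44.2%, 44.2% and 42.1% at those distances outside deserts, and 41.7% and 48.7% (41.7 to 56.6) in deserts.

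**Figure D4:**
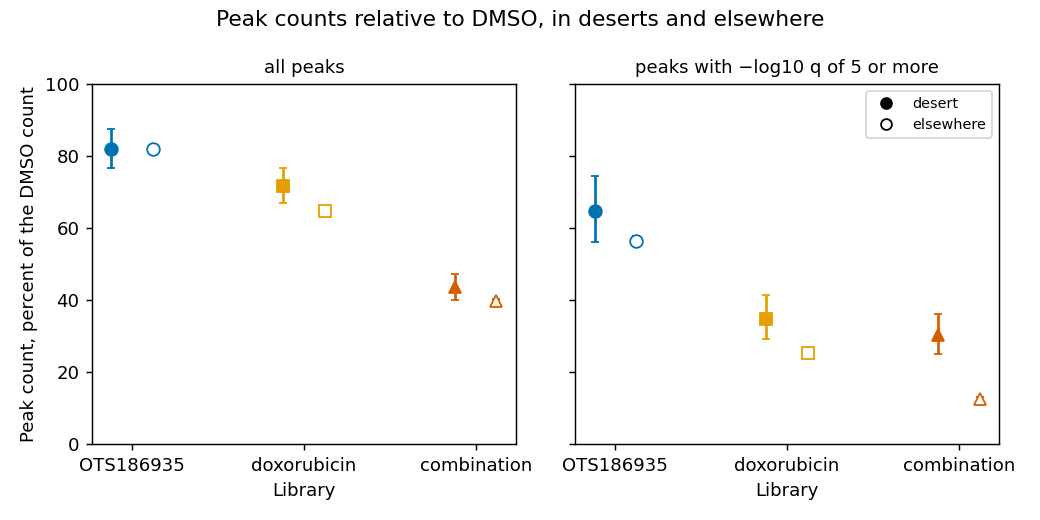
Peak counts of the 3 treated libraries as a percentage of the DMSO count, for all peaks (left panel) and for peaks that reached a −log10 q of 5 (right panel), in deserts (filled) and elsewhere (open), with exact 95% intervals for counting error. The combination shows the widest gap, 30.2% in deserts against 12.6% elsewhere among the stronger peaks.

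Over all kinds of stretch, DMSO desert peaks were overlapped by a doxorubicin or a combination peak somewhat more often than other DMSO peaks, and by an OTS186935 peak about as often. Of the 2006 DMSO desert peaks, 861 (42.9%, interval 40.7 to 45.1) overlapped an OTS186935 peak, against 44.4% of DMSO peaks elsewhere and 44.3% of all. A doxorubicin peak overlapped 752 (37.5%, 35.4 to 39.6), against 34.9% (34.5 to 35.2) elsewhere and 34.9% of all, and a combination peak overlapped 561 (28%, 26 to 30), against 23.4% (23.1 to 23.7) elsewhere and 23.5% of all. In interior stretches alone the shares were 40.5% with OTS186935, 35.5% (33.2 to 37.8) with doxorubicin and 26.6% (24.5 to 28.8) with the combination. For doxorubicin the interior share was thus close to that elsewhere, and its share was 48.6% in near-end and 46.3% in widest-gap stretches. Read from the treated side, 863 of 1642 OTS186935 desert peaks (52.6%) overlapped a DMSO peak, where 54.3% of all its peaks did. For doxorubicin it was 756 of 1437 (52.6%) where 54% of all did, and for the combination 563 of 873 (64.5%, 61.2 to 67.7) where 59.2% of all did. Desert peaks without a DMSO peak thus numbered 779 with OTS186935, 681 with doxorubicin and 310 for the combination. When the 4 lists were first brought to equal length, DMSO desert peaks were overlapped in 50%, 49.3% and 48.2% by OTS186935, doxorubicin and the combination, against 42.6%, 39.8% and 35.2% elsewhere.

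The gap in sharing between deserts and other space was not the same for weak and strong DMSO peaks. For DMSO peaks with a −log10 q of 1 to 2, a combination peak overlapped 11% in deserts (interval 8.31 to 14.2) against 10.3% elsewhere, and an OTS186935 peak 20.7% (17.1 to 24.7) against 25.7% (25 to 26.4). For those of 2 to 5, an OTS186935 peak overlapped 38.6% (35.6 to 41.7) in deserts against 42.3% (41.8 to 42.8) elsewhere. For those of 5 to 10, the shares were 67.6% (63.1 to 71.9) in deserts against 62.6% elsewhere with OTS186935, 62.7% (58.1 to 67.2) against 53.4% with doxorubicin and 51.3% (46.6 to 56.1) against 38.3% with the combination. Of the 72 DMSO desert peaks that reached 10, 67 were overlapped by OTS186935, 57 by doxorubicin and 54 by the combination. These are 93.1% (84.5 to 97.7), 79.2% (68 to 87.8) and 75% (63.4 to 84.5), against 81.7%, 75.6% and 59.4% elsewhere. The doxorubicin interval thus covers its value elsewhere. A −log10 q of 5 was reached by 91 of 208 near-end DMSO peaks and by 392 of 1677 interior ones. Sharing by strength was not measured for interior stretches alone.

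**Figure D5:**
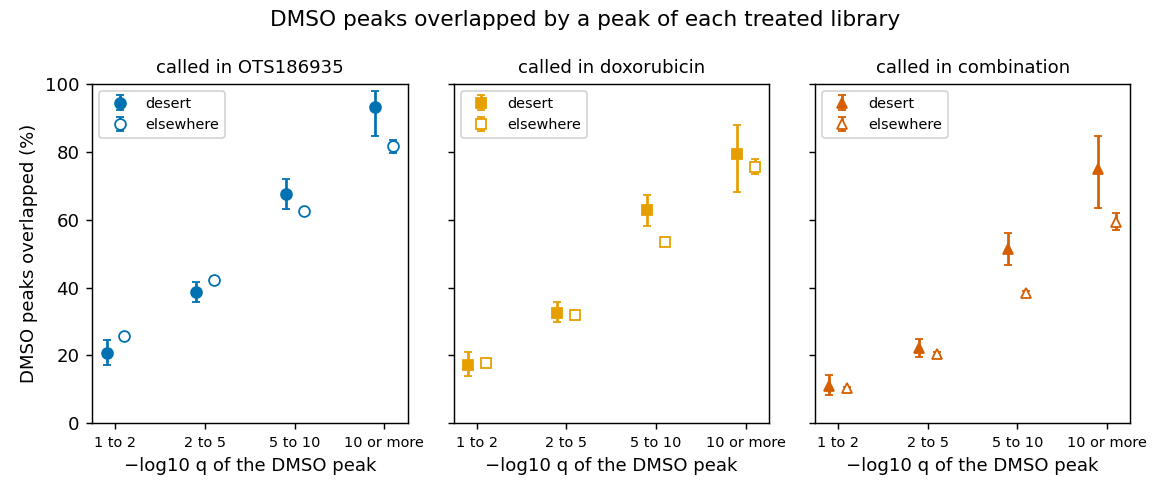
Percentage of DMSO peaks overlapped by a peak of each treated library (1 panel each), by the −log10 q of the DMSO peak, in deserts (filled) and elsewhere (open), with exact 95% intervals. Below a −log10 q of 5 the desert value is lower for OTS186935 and close for the other libraries, and from 5 on the desert values lie higher, with the widest gap for the combination (75% against 59.4% at 10 or more).

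Joined over the 4 lists, desert peaks made 3509 regions, of which 336 (9.58%, interval 8.62 to 10.6) were called in all 4 libraries, against 7.24% (7.09 to 7.39) of regions elsewhere and 7.3% of all 119614 regions. Regions called in 1 library alone numbered 2107, 60% of desert regions against 58.4% elsewhere. They comprised 587 of OTS186935 (16.7% of desert regions against 16.3% of regions elsewhere), 502 of doxorubicin (14.3% against 12.3%), 190 of the combination (5.41% against 6.09%) and 828 of DMSO (23.6% against 23.7%). Width rose with sharing, at a median of 385 bp for desert regions in 1 library, 507 bp in 2, 653 bp in 3 and 776 bp in all 4, as joined regions must widen with more members. By kind of desert, 263 of 2965 interior regions (8.87%, 7.87 to 9.95), 47 of 328 near-end regions (14.3%, 10.7 to 18.6) and 26 of 216 widest-gap regions (12%, 8.02 to 17.1) were called in all 4.

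Desert peaks met annotated non-coding genes more often than desert length did. Non-coding genes covered 13.6% of desert length, and 455 of 1642 desert peaks (27.7%, interval 25.6 to 29.9) overlapped one with OTS186935, 411 of 1437 (28.6%) with doxorubicin, 253 of 873 (29%) with the combination and 574 of 2006 (28.6%, 26.6 to 30.6) with DMSO. lncRNA genes covered 12.6% of the length and met 22.6%, 24.2% and 23.5% of peaks in the treated libraries and 24.1% with DMSO. Pseudogenes covered 0.707% and met 4.32%, 3.69% and 5.27%, and 4.24% with DMSO. A peak has a width and meets a gene when any base overlaps it, and the widest gaps hold no genes at all, so these shares and covered lengths are not on an equal footing. Widest-gap stretches made up 44.7% of desert length but held only 6.03% to 7.67% of desert peaks. In interior stretches 25.5%, 26.8% and 26.2% of peaks met a non-coding gene in the treated libraries, and 28% with DMSO. The length that such genes cover in interior stretches alone was not measured, so an excess there is not shown. Neighbouring desert peaks were a median of 58.9 kb apart with OTS186935, 70.3 kb with doxorubicin, 95.2 kb with the combination and 54.6 kb with DMSO, and 5.14%, 5% and 4.33% of neighbouring pairs in the treated libraries and 5.58% with DMSO lay within 5 kb.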

How the data were processed

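γH2AX ChIP-seq was analysed as 4 peak lists, 1 per treatment. The submitters' processing notes name the build hg38, MACS2 2.2.7.1, Bowtie2 2.4.2, bedtools 2.30.0 and Picard 2.25.3. What each did, the filters, the peak options and whether an input served as control: not given in the sources used here. The deposited lists give positions, a fold enrichment (a ratio), −log10 p and −log10 q values and a score, which are the authors' deposited values; the score was not used. Depth is not stated. Summit fragments are the whole number that best gave the deposited −log10 p from the deposited fold by the MACS2 formulas (within 0.02 for 100% of rows). The background used at each summit follows from it.

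Rows that overlapped or touched were merged within each list. Genes came from a RefSeq table of GRCh38.p14, the same primary assembly as hg38. Of 20052 coding rows, 177 carried coordinates of scaffolds or alternate loci and were left out. A chromosome's length is the highest coordinate of any gene or peak on it. Peaks were shared when they overlapped by 1 bp. The members and gene lists were chosen with earlier results of these data known. Named stretches were the 10 with most regions, the 5 longest and the 3 densest of 1 Mb or more in DMSO, and named peaks were chosen by −log10 q. The B3GAT1 stretch was named after its values were seen, and the division into 3 kinds of stretch was made then too. Python 3.11.15 with pandas 2.3.3 and scipy 1.17.1 was used, and steps were tested on simulated data.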

Additional observations from a re-analysis of the deposited data

Results flagged for a closer look

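Chromosome X was outside the autosomal comparisons, and desert peaks were listed there too, above the floor of 3 counts. They numbered 60 with OTS186935, 56 with doxorubicin, 27 with the combination and 78 with DMSO over 14.6 Mb of desert. Density was 4.12, 3.85 and 1.85 peaks per Mb in X deserts in the treated libraries and 5.36 with DMSO, against 15.2, 12.1 and 7.82 elsewhere on X in the treated libraries and 17.4 with DMSO.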

How the results depend on the processing

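Desert density stayed below density elsewhere in all 40 alternatives tried for the ratio, while 59 of 99 values moved by more than counting error. A change of direction was scored for the ratio alone, not for the shares or overlaps. Values are given for OTS186935, doxorubicin, the combination and DMSO, in that order. With a distance of 250 kb the ratio was 0.244, 0.266, 0.26 and 0.242 and the share of peaks in deserts 6.19%, 6.73%, 6.57% and 6.14%. With 1 Mb the ratio was 0.097, 0.109, 0.114 and 0.0936 and the share 0.772%, 0.87%, 0.908% and 0.745%. With peaks of −log10 q of 5 or more the ratio was 0.215, 0.26 and 0.45 in the treated libraries, with shares of 3.29%, 3.94% and 6.64%. With any RefSeq gene, coding or not, 3 to 11 peaks were left, at ratios of 0.00218, 0.00431, 0.00191 and 0.0028 and shares of 0.0122%, 0.0241%, 0.0107% and 0.0156%, and the cause was not tested. With stretches of 1 Mb or more that hold no row left out (33 stretches, 172 Mb of desert) the ratio was 0.327, 0.361, 0.357 and 0.327. For interior stretches, chosen after the data were seen, the ratio was 0.283, 0.312, 0.31 and 0.289 and the share 2.33%, 2.57%, 2.55% and 2.38%. With lists of equal length the DMSO ratio was 0.177 and its share 2.72%. Keeping the scaffold rows of the gene table, also chosen later, moved no value beyond counting error. DMSO desert peaks overlapped by OTS186935, doxorubicin and the combination were 39.1%, 32.8% and 24.3% with a reciprocal overlap of 50% (37.5%, 28% and 18.1% elsewhere), and 71.2%, 65% and 54.6% for DMSO peaks of −log10 q of 5 or more (64.4%, 55.5% and 40.2% elsewhere). They were 32.5%, 20.6% and 16.2% with both lists at that limit (26.3%, 13.9% and 6.21% elsewhere), and 50%, 49.3% and 48.2% with lists of equal length (42.6%, 39.8% and 35.2% elsewhere). The desert share was the higher under these 4 settings, for OTS186935 too, whose share in the report is the lower (42.9% against 44.4%). At 1 Mb doxorubicin gave 41.2% and the combination 30.7%, and in interior stretches OTS186935 gave 40.5%. No paired analysis was possible because treatments have 1 library each, with no replicates to pair between them; the paired test in the report sets deserts against other space within libraries. Median summits of 5 to 7 fragments limit what can be called, so a missing peak was not detectable at this depth and is not shown to be absent.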
